A study of Mus musculus with 7 samples.

Results

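The genes of the 2 glycogen synthase kinase 3 (GSK3) isoforms, of the subunits of protein kinase A (PKA) and of a pair of PKA anchoring proteins were followed across the cell types of mouse mammary tumors. The members are Gsk3a, Gsk3b, Prkar1a, Prkar1b, Prkar2a, Prkar2b, Prkaca, Prkacb, Akap1 and Akap13. They were taken by symbol, 10 of the 33710 genes with a row in any count table, and all 10 were found. The 7 tumors came from control MMTV-PyMT;HK2f/f mice, 1 Drop-seq library each, labelled as wild type and taken 3 months after a palpable tumor developed. The floxed hexokinase 2 alleles (HK2f/f) were shared by all 7 and were left intact in these controls, which received tamoxifen as well. Tumors with deleted HK2 were not analysed here. The polyoma middle T oncogene (PyMT) was driven by the MMTV promoter, which acts mainly in mammary epithelium, so the tumor cells compared here are those of 1 transgenic model. Drop-seq captures polyadenylated mRNA in droplets and counts unique molecular identifiers (UMIs). The libraries carry CB (4) or WT (3) in their titles, terms that the labels do not explain.

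GSK3 is a serine/threonine kinase that marks many proteins, among them beta-catenin, for degradation, and phosphorylation near its amino terminus by PKA, AKT and other kinases inhibits it. PKA is held inactive by a dimer of regulatory subunits, of type RI (Prkar1a, Prkar1b) or RII (Prkar2a, Prkar2b), and cyclic AMP releases the catalytic subunits (Prkaca, Prkacb). A-kinase anchoring proteins (AKAPs) bind the regulatory subunits and place PKA near its substrates, and the study asked whether HK2 acts as such a scaffold for PKA and GSK3. The mRNA levels below say where the parts of this system were transcribed and nothing about kinase activity or phosphorylation.

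Promoters are shown first for an anchoring, a catalytic and a regulatory gene, each called in at least 4 classes and chosen after the values were seen, from RefSeq for the GRCm38.p6 build. Each window runs from 250 bases before to 50 bases after an annotated start and is written 5′ to 3′ on the strand of the gene. All 10 members were matched, with 25 windows in all, and where a gene has several the one farthest upstream is printed. Capitals mark the GC box GGGCGG (or CCGCCC, the other strand) and the core of the cyclic AMP response element, TGACG (or CGTCA).
Akap13, chr7:75455284-75455583, plus strand: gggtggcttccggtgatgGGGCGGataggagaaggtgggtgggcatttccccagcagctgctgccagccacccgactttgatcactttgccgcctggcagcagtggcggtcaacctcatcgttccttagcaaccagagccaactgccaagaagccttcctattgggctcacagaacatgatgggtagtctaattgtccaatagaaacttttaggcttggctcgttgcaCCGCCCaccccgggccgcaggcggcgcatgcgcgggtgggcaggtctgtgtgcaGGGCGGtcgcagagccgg
Prkacb, chr3:146812897-146813196, minus strand: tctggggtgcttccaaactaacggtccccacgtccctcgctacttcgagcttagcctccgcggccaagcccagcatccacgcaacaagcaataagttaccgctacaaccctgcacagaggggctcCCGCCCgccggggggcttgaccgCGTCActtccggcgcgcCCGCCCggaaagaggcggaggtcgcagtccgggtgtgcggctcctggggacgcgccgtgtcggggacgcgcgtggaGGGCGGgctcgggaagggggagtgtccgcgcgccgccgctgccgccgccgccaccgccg
Prkar2b, chr12:32061228-32061527, minus strand: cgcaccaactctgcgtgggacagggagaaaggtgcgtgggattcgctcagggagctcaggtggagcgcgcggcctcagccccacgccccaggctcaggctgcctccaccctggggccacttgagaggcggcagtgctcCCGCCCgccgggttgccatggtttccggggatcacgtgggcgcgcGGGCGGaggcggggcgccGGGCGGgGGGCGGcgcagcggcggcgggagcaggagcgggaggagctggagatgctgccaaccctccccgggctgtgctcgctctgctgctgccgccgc
A GC box was present in 15 of the 25 windows, of every member but Gsk3b and Prkar2a, against 35.7% of all 32851 promoter windows. The core was present in 8 of the 25, against 20.8% of all windows, and these belong to 6 members (Gsk3a, Prkaca, Prkacb, Prkar1a, Prkar1b and Prkar2a). The full element TGACGTCA, which contains the core, was in 2 of the 25, both of Prkar1a, against 1.79% of windows. Windows of 1 gene can overlap and are not independent. These matches describe letters in a window and do not show that a factor binds there. The 3 windows printed hold 17, 41 and 32 CpG dinucleotides, in the order shown, against a median of 7 over all windows. Akap13 has no other window. Of the 3 windows of Prkacb the 2 not printed hold 5 and 2 CpG, and the other window of Prkar2b holds 28.

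Cells were the 15047 of 37000 barcodes that held between 200 and 6000 genes, 1133 to 4780 per tumor, with 962677 to 4471473 UMIs per tumor and medians of 527 to 694 UMIs per cell. No more than 1 cell barcode was shared by any pair of libraries, 5 in all. Cells fell into 16 clusters, of which 13 were named from marker genes as 7 classes: tumor (6172 cells), hormone-sensing (1700), myoepithelial (267), fibroblast (1028), endothelial (143), macrophage (1917) and T/NK (2206). In these 7 classes 8 of 12, 8 of 10, 9 of 10, 10 of 10, 11 of 11, 10 of 10 and 11 of 12 of the markers, in the same order, were highest in their own class. The names were rebuilt from the counts and may differ from those of the study. None of the 10 members was among the 587 variable genes used to cluster. UMIs were summed per mouse and class, giving 43 sums with at least 10 cells, from 7 mice in 5 classes, 5 in myoepithelial and 3 in endothelial cells. Levels are given as CPM, the UMIs of a gene for each 1000000 UMIs of the sum. Replicate 4 held 1010 of the 1700 hormone-sensing cells. The myoepithelial sum of replicate 7 came from 11 cells and 23561 UMIs, with tumor markers at 97534 CPM (16484 to 27489 in the other 4 sums) and myoepithelial markers at 1231 CPM (3608 to 11330), and its 84.9 CPM for each of Prkacb, Prkar1b and Akap13 stands for 2 UMIs. By their own marker UMIs 72 of the 267 myoepithelial cells fell in that class and 81 in another. The part of this in the myoepithelial values was not tested. The total depth of a class ran from 8048342 UMIs in tumor cells to 96683 in endothelial cells, so that 3 UMIs, taken as the limit that a count of 0 allows, corresponded to 0.373 CPM and 31.0 CPM.

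Across the 7 classes, 8 of the 10 members passed the edgeR test at an adjusted p under 0.05, where 67.1% of all 13111 genes tested did, so the number itself is close to that of other genes. Gsk3a (adjusted p = 0.206) and Prkaca (adjusted p = 0.222) did not pass. Against tumor cells, 23 of the 60 combinations of gene and class passed, 17 higher and 6 lower. Akap13 was higher than in tumor cells in 5 of 6 classes, Prkar1b in 5 and Prkacb in 4, whereas Prkar2b was higher in 1 class and lower in 3. By contrast, Gsk3b differed in 1 class and Prkar1a in 2, with folds of under 1 on the log2 scale. The members called were 3 of 10 in hormone-sensing cells (23.8% of all genes), 3 in myoepithelial cells (13.7%), 5 in fibroblasts (32.9%), 2 in endothelial cells (7.75%), 4 in macrophages (38.1%) and 6 in T/NK cells (42.6%). The median log2 fold change of the members was 0.01, 0.57, 0.43, 0.47, −0.08 and −0.45 in these classes, in the same order. The same median over all genes was −0.03, 0.15, 0.14, −0.17, −0.10 and −0.08.

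When the classes were ordered by the mean level of each gene, 60 pairs of neighbours were compared within mice, of which 36 had enough mice to reach an exact permutation p under 0.05. Pairs with endothelial cells (3 mice) cannot give less than 0.25 and those with myoepithelial cells (5 mice) not less than 0.0625, so these pairs could not be ordered. Of the 36, 4 did, 1 each for Gsk3b and Akap13 and 2 for Prkar2b. For Prkar2b, the step from tumor cells to macrophages counted shallow sums at 0 as lower. Barcodes under 200 genes, which may hold free RNA, gave a mean level for each member, and 28 of the 70 class means were at or under it. What these barcodes hold was not tested. Such means are not read as expression, which does not show that the gene was absent there. These levels were 182 ± 56.6 CPM for Prkar1a, 35.6 ± 12.6 for Prkar2a, 8.83 ± 4.46 for Prkar2b, 22.5 ± 15.1 for Prkaca and 13.7 ± 7.21 for Akap1 (SD, n = 7), and those of the other 5 stand beside their values.

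**Figure D1:**
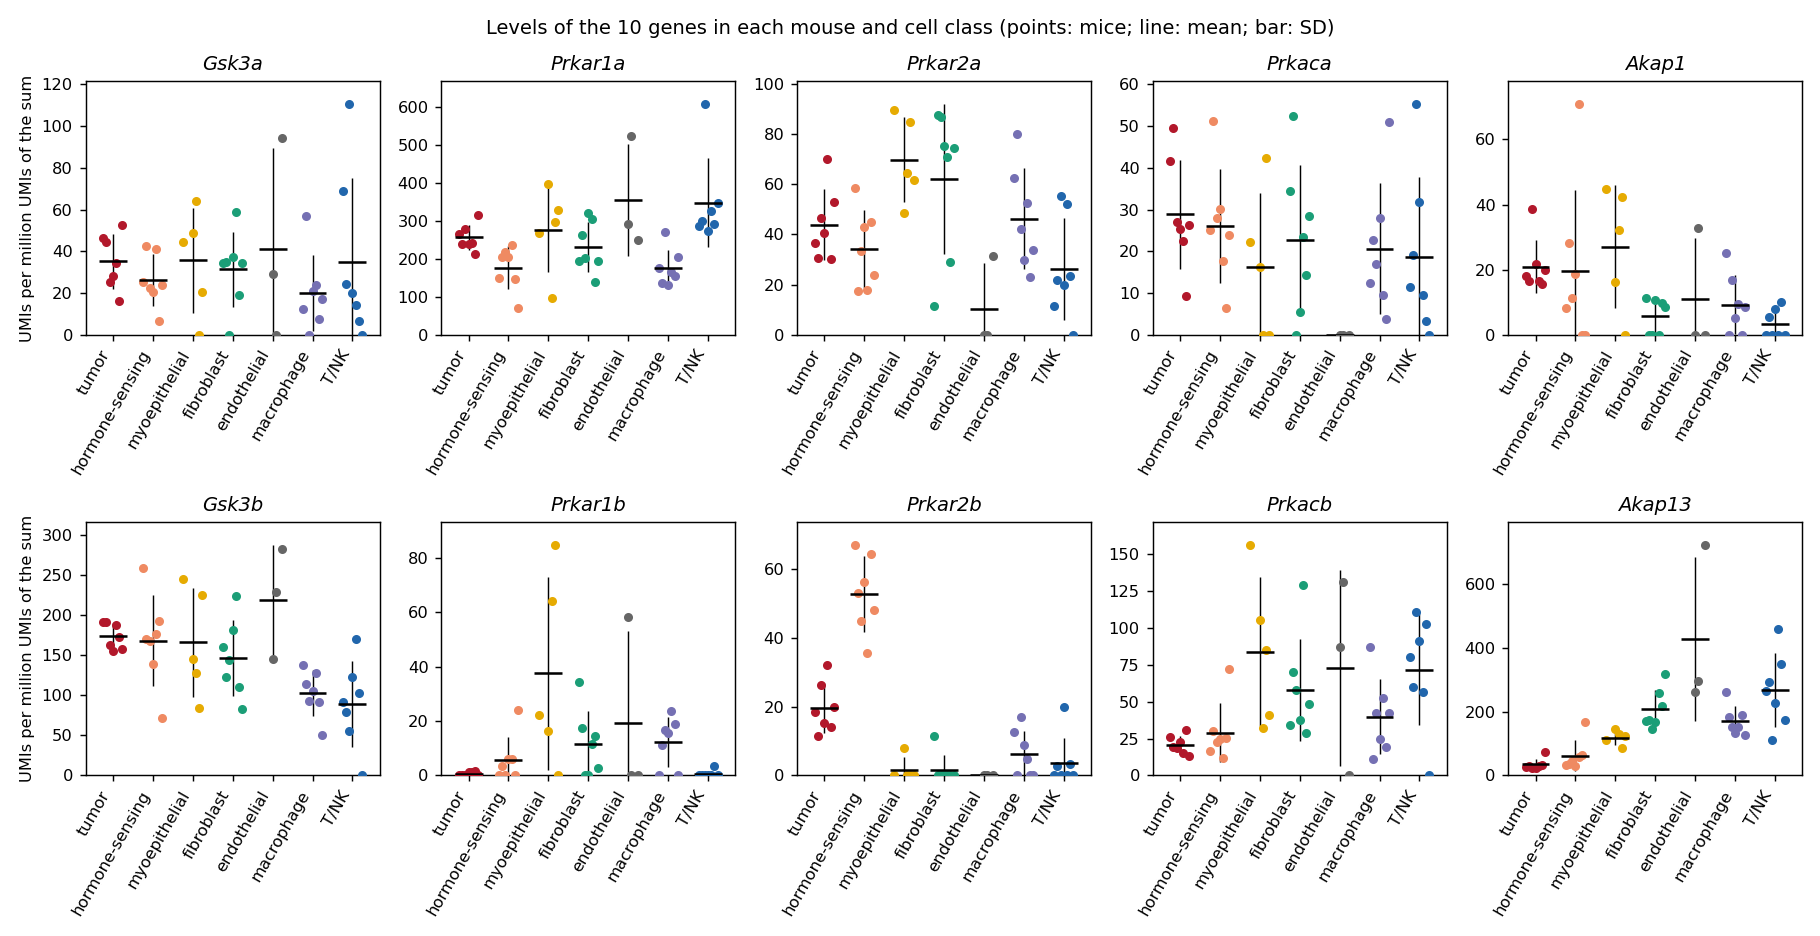
Level of each of the 10 genes (vertical axis, CPM) in the 7 cell classes (horizontal axis), where points are mice, the horizontal line is the mean and the bar is ± 1 SD. Akap13 was lowest in tumor cells and Prkar2b highest in hormone-sensing cells, while Gsk3a and Prkaca overlapped the tumor range in every class with a UMI.

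UMIs of both GSK3 kinases were found in every class. Barcodes under 200 genes held Gsk3b at 136 ± 31.8 CPM and Gsk3a at 21.7 ± 10.99 CPM (n = 7), above the mean of Gsk3b in macrophages (103) and T/NK cells (89.0) and of Gsk3a in macrophages, so these levels are not read as expression there. Gsk3b, the beta isoform (chromosome 16, 38089001 to 38246084, plus strand), was at 155 CPM in the lowest tumor sum, 173 in the median and 192 in the highest (174 ± 16.1, SD, n = 7). In macrophages the lowest, median and highest were 50.9, 105 and 137 CPM, all below the lowest tumor sum. T/NK cells ranged from 0 to 171 CPM with a median of 92.0, and overlapped the tumor range. The sum at 0 was shallow, and 3 UMIs in it correspond to 260 CPM, above every tumor sum. Macrophages were lower than tumor cells in 7 of 7 mice (two-sided exact permutation test that flips the sign of each mouse's log2 difference, with 5 CPM added, p = 0.0156, the lowest value 7 mice can give), as were T/NK cells (p = 0.0156). In edgeR, which scales the sums by TMM factors that the CPM do not use, T/NK cells passed and macrophages did not, with a log2 fold change of −0.59 ± 0.20 (SE, adjusted p = 0.0129). The call was lost without replicate 2 or without replicate 7, and the fold was −0.66 within the CB titles, which passed, and −0.46 within the WT titles, which did not. In all, 8 of 24 alternatives lost this call, among them classes made from the cells' own marker UMIs. In the order of mean levels, endothelial cells (219 CPM) came first, followed by tumor, hormone-sensing, myoepithelial (166) and fibroblast (147) cells. Of the neighbours in this order with 7 mice, only fibroblasts and macrophages differed beyond the spread between mice (0.48 on the log2 scale, 7 of 7 mice, exact permutation p = 0.0156).

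Gsk3a, the alpha isoform (chromosome 7, 25228258 to 25237851, minus strand), ran from 16.04 to 52.7 CPM in tumor cells with a median of 34.5. Its class means lay between 19.8 CPM in macrophages and 41.1 CPM in endothelial cells, the latter from 4 UMIs. Every class overlapped the tumor range, and no class passed against tumor cells in edgeR. Macrophages were lower in 6 of 7 mice (exact permutation p = 0.0312). Their 1 sum at 0 was so shallow that 3 UMIs (25.3 CPM) exceed the tumor level of the same mouse. The p counts that sum as lower, and 5 mice are lower without it. The ratio of summed counts to tumor cells was 0.594 (95% counting interval 0.384 to 0.885). Exons of an antisense gene, 9130221H12Rik, overlap those of Gsk3a, and whether counting used the strand is not given in the sources used here. Gsk3b made up 79.9 to 85.8% of the summed UMIs of both isoforms, with the lowest share in fibroblasts (exact binomial 95% interval 72.9 to 85.7%) and the highest in hormone-sensing cells (82.5 to 88.8%).

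Among the regulatory subunits, RIα was found in every sum. Its gene, Prkar1a (chromosome 11, 109649405 to 109669656, plus strand), was at 214, 241 and 316 CPM in the lowest, median and highest tumor sum. T/NK cells gave 274, 300 and 608 CPM, the highest from a sum of 11 Prkar1a UMIs in replicate 3. They were above tumor cells in 7 of 7 mice although the ranges overlapped, with a log2 fold change of 0.46 ± 0.18 in edgeR (adjusted p = 0.0327). This call was lost without replicate 2, 3 or 5, and within the CB titles (0.50) and the WT titles (0.42). In all, 11 of 24 alternatives lost it, among them DESeq2, its size factors, at least 500 genes per barcode and no replicate block. Hormone-sensing cells gave 71.9, 206 and 236 CPM and were below tumor cells in 7 of 7 mice, with a fold of −0.46 ± 0.17 (adjusted p = 0.0437). Of the 7 fits that leave out a mouse, only the one without replicate 5 kept that call, and it was lost within the CB titles (−0.37) and the WT titles (−0.61). In all, 13 of 24 alternatives lost it, among them classes made from the cells' own marker UMIs. Macrophages were also lower in 7 of 7 mice by the exact permutation test (p = 0.0156), but the edgeR fold was −0.17 and did not pass. The order of Prkar1a ran from endothelial (356 CPM) through T/NK, myoepithelial, tumor, fibroblast and macrophage to hormone-sensing cells (177 CPM). No neighbouring classes with 7 mice in it differed beyond the spread between mice. The means in macrophages and hormone-sensing cells were under the 182 CPM of barcodes under 200 genes and are not read as expression.

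Prkar1b, the gene of RIβ, known best from neurons (chromosome 5, 139017306 to 139150001, minus strand), was rare. It had 60 UMIs in all sums together, 24 of them in replicate 4 and 14 in replicate 7. Tumor cells held 6 UMIs among 8048342, with 4 of 7 mice at 0 and a highest value of 1.55 CPM. Macrophages held 22 UMIs and ranged from 0 to 23.8 CPM with a median of 15.8, and fibroblasts held 9 UMIs and ranged from 0 to 34.3 CPM. The 5 myoepithelial sums were at 22.3, 16.2, 64.3, 84.9 and 0 CPM in replicates 1, 4, 5, 7 and 8. In macrophages, fibroblasts and myoepithelial cells most mice thus lay above the tumor range, with at least 1 mouse at 0 in each. The ratio of summed counts to tumor cells, with its 95% counting interval, was 20.4 (8.02 to 61.5) in macrophages, 34.6 (9.95 to 125) in myoepithelial cells, 12.0 (3.805 to 40.9) in fibroblasts and 6.39 (2.27 to 20.5) in hormone-sensing cells.

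In edgeR, Prkar1b passed in 5 classes, with log2 fold changes of 2.18 ± 0.62 in hormone-sensing (adjusted p = 0.00497), 5.01 ± 0.87 in myoepithelial (4.77e-06), 3.82 ± 0.73 in fibroblast (1.25e-05), 4.15 ± 0.57 in macrophage (2.65e-09) and 4.57 ± 1.46 in endothelial cells (0.0364). The endothelial value rests on 2 UMIs of replicate 4, a ratio of 27.7 (2.74 to 155). T/NK cells had 1 UMI, a ratio of 1.08 (0.0234 to 8.86). The exact permutation test within mice did not reach 0.05 in any class, with p = 0.0625 in macrophages and fibroblasts and 0.125 in hormone-sensing and myoepithelial cells, where 5 mice cannot give less than 0.0625. Without replicate 4 or replicate 7 the gene fell under the filter of 50 UMIs and was not tested, nor was it within either title series. In classes made from the cells' own marker UMIs the folds in fibroblasts (2.98) and macrophages (2.89) passed, and those in hormone-sensing (0.84, adjusted p = 0.528), myoepithelial (2.17, 0.591) and endothelial cells (3.43, 0.533) did not. Barcodes under 200 genes held it at 3.00 ± 2.86 CPM (n = 7), above the tumor level, and the part of free RNA in these values was not tested. Exons of Gm15672, a processed transcript on the same strand, overlap those of Prkar1b, and how the counting treated the overlap is not given in the sources used here.

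The RII subunits went in different directions. Prkar2b, the gene of RIIβ (chromosome 12, 31958476 to 32061296, minus strand), was found mainly in hormone-sensing and tumor cells. Tumor cells gave 11.4, 18.5 and 32.1 CPM as the lowest, median and highest of 7 mice, and hormone-sensing cells 35.4, 52.9 and 66.9 CPM, with no overlap. The 7 fibroblast sums held 1 UMI in all, the 5 myoepithelial sums 1 and the 3 endothelial sums 0 of 96683, a depth that allows up to 31.0 CPM, which is above the tumor mean of 19.6. Macrophages ranged from 0 to 16.9 CPM with a median of 4.76, and T/NK cells from 0 to 19.9 CPM with 4 of 7 mice at 0. The gene was thus higher in hormone-sensing than in tumor cells and low or without a UMI elsewhere. The endothelial sums and the 4 myoepithelial sums at 0 were too shallow to place these classes below tumor cells.

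Hormone-sensing cells exceeded tumor cells in Prkar2b in 7 of 7 mice, by 1.48 ± 0.28 on the log2 scale in edgeR (adjusted p = 1.35e-05) and by 1.26 in the exact permutation test (p = 0.0156). Tumor cells exceeded macrophages in 7 of 7 mice, with a fold in macrophages of −1.19 ± 0.49 (adjusted p = 0.0464), and T/NK cells in 6 of 7, with −1.48 ± 0.52 (adjusted p = 0.0162). Of the sums at 0, 2 of 3 in macrophages, 3 of 4 in T/NK cells and 5 of 6 in fibroblasts were so shallow that 3 UMIs exceed the tumor level of the same mouse, which leaves 5, 3 and 2 mice that bear on the order. The macrophage call was lost without replicate 2, 5, 7 or 8, and the T/NK call without replicate 2, 5 or 7. In fibroblasts edgeR gave −3.29 ± 0.90 (adjusted p = 0.00231), and the ratio of summed counts, tumor to fibroblast, was 18.7 with a 95% counting interval of 3.30 to 742. The same ratio to myoepithelial cells was 5.03 (0.888 to 200), and that class did not pass. Within the CB titles the hormone-sensing fold was 1.70 and passed, and within the WT titles it was 1.16 and did not (adjusted p = 0.284). With cells put in a class by their own marker UMIs it was 0.78 (adjusted p = 0.0703). Within the CB titles the folds in fibroblasts (−2.06), macrophages (−0.47) and T/NK cells (−0.70) did not pass. Within the WT titles these classes held 0, 1 and 1 UMIs, against 57 in tumor cells, so no fitted fold is given. There the gene was at least 4.18-fold lower in fibroblasts than in tumor cells, taking 3 UMIs over the class as the limit, and the ratio of summed counts, tumor to class, was 11.5 (95% counting interval 1.98 to 462) for macrophages and 10.2 (1.76 to 410) for T/NK cells. The step at the top of the order, from hormone-sensing to tumor cells, exceeded the spread between mice (exact permutation p = 0.0156). The step from tumor cells to macrophages gave the same exact p with shallow sums at 0 counted as lower. The 5 mice that bear on this step cannot give less than 0.0625. Across the 43 sums the genes most like Prkar2b were Mpzl3 (Pearson r = 0.89), Tspan1 (0.89) and Prom1 (0.87), the last of which is one of the hormone-sensing markers used to name the class. Sums of 1 mouse share its library and depth, so these correlations are descriptions.

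Prkar2a, the gene of RIIα (chromosome 9, 108689314 to 108750436, plus strand), did not share this pattern. It was at 30.02, 40.7 and 70.2 CPM in the lowest, median and highest tumor sum, and at 11.4, 74.2 and 87.5 CPM in fibroblasts, with overlap. Fibroblasts passed in edgeR at 0.97 ± 0.29 (adjusted p = 0.00554), but were higher in only 5 of 7 mice by the exact permutation test (p = 0.422). The fold was 1.22 within the CB titles, which passed, and 0.61 within the WT titles, which did not. No other class passed in edgeR. T/NK cells were lower in 6 of 7 mice by the exact permutation test (p = 0.0312). Their 1 sum at 0 was so shallow that the limit a count of 0 allows in it (260 CPM) exceeds the tumor level of the same mouse. The p counts that sum as lower, and 5 mice are lower without it. The ratio of summed counts, T/NK to tumor cells, was 0.657 (95% counting interval 0.445 to 0.942). The T/NK mean of 26.3 CPM was under the 35.6 CPM of barcodes under 200 genes and is not read as expression. Endothelial cells held 1 UMI, a ratio to tumor cells of 0.257 with an interval of 0.00649 to 1.44.

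The make-up of the regulatory pool in summed UMIs differed between classes. Prkar2b made up 60.2% of the RII UMIs in hormone-sensing cells (exact binomial 95% interval 53.7 to 66.3%), 31.5% in tumor cells (27.3 to 35.9%) and 1.61% in fibroblasts (0.0408 to 8.66%). Its share lay between 53.3 and 75.0% in the 7 hormone-sensing sums and between 27.3 and 36.0% in the 7 tumor sums. The 2 RI genes held 69.5% of all regulatory UMIs in hormone-sensing cells (66.2 to 72.7%), 80.8% in tumor cells (79.2 to 82.3%) and 90.4% in T/NK cells (87.2 to 93.1%). By mouse this share ran from 54.5 to 82.0% in hormone-sensing and from 70.3 to 85.1% in tumor cells, which overlapped, and from 86.2 to 100% in T/NK cells. Shares between genes depend on how well each transcript is captured at its 3′ end, so only their differences between classes are read. The intervals cover counting error only.

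**Figure D2:**
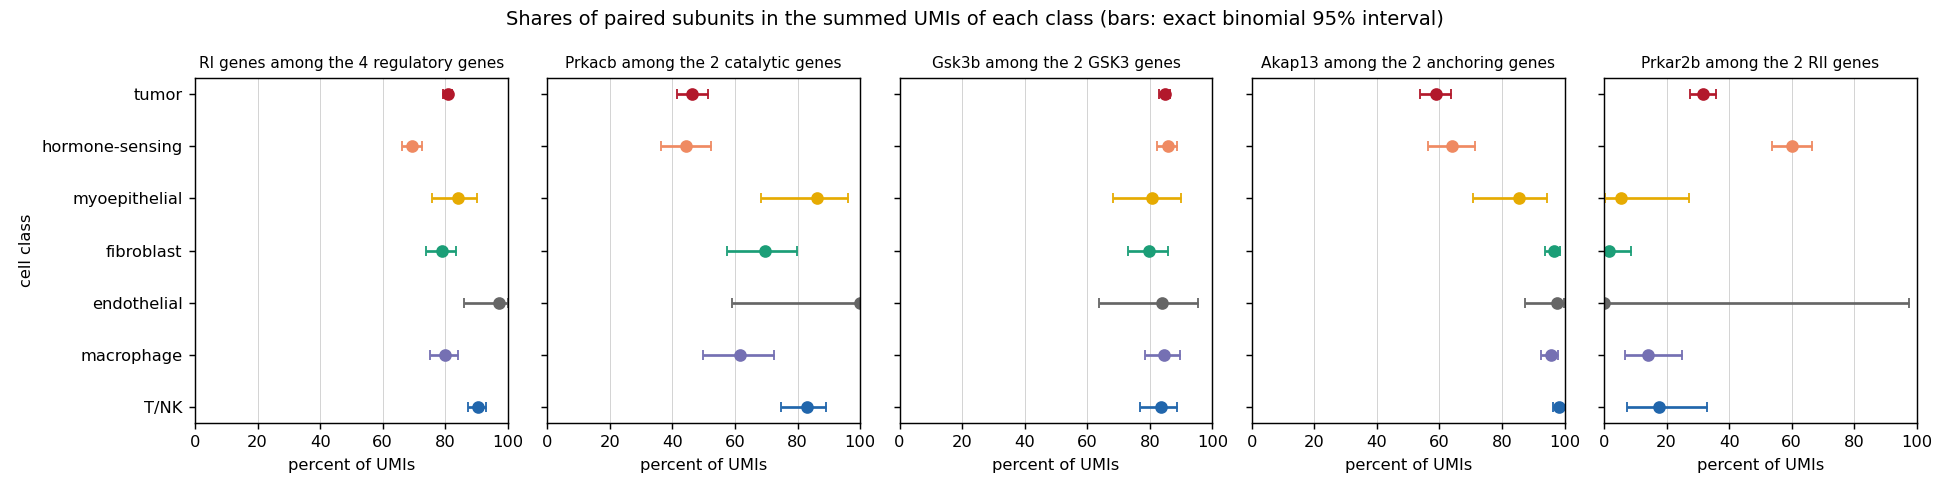
Share of 1 gene or pair in the summed UMIs of its family (horizontal axis, percent) for each cell class (vertical axis), where bars are exact binomial 95% intervals. Prkar2b held 1.61% of RII UMIs in fibroblasts and 60.2% in hormone-sensing cells, and Akap13 58.8% of the UMIs of both anchoring genes in tumor cells and 98.3% in T/NK cells.

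The catalytic subunits also parted. Prkacb, the gene of Cβ (chromosome 3, 146729574 to 146812990, minus strand), was at 13.2, 19.0 and 31.1 CPM in the lowest, median and highest tumor sum. The 5 myoepithelial sums were at 156, 105, 32.1, 84.9 and 41.1 CPM in replicates 1, 4, 5, 7 and 8, all above the highest tumor sum. Fibroblasts ranged from 28.9 to 129 CPM with a median of 48.5, T/NK cells from 0 to 111 with a median of 80.5 and macrophages from 11.4 to 87.5 with a median of 42.1, and these 3 overlapped the tumor range. Prkacb rose against tumor cells by 2.31 ± 0.45 on the log2 scale in myoepithelial cells (edgeR, adjusted p = 4.85e-05), by 1.72 ± 0.34 in fibroblasts (2.34e-05), by 1.89 ± 0.28 in T/NK cells (3.08e-08) and by 1.04 ± 0.33 in macrophages (0.00772). The number of mice with a higher level was 5 of 5, 6 of 7, 6 of 7 and 5 of 7. The exact permutation test gave p = 0.0312 in fibroblasts, 0.109 in T/NK cells, where 1 mouse had no UMI, and 0.141 in macrophages. The macrophage call was lost without replicate 5. Barcodes under 200 genes held Prkacb at 37.3 ± 12.0 CPM (n = 7), a mean above every tumor sum and near the macrophage mean of 39.9, and the part of free RNA in these values was not tested. Within the CB titles the 4 folds were 2.82, 1.53, 2.02 and 1.06 in the order given above, and within the WT titles 1.30, 1.76, 1.78 and 0.97, where those in myoepithelial cells and macrophages did not pass. In classes made from the cells' own marker UMIs the folds in myoepithelial cells (0.53) and macrophages (0.59) did not pass. Endothelial cells (87.5, 131 and 0 CPM) and hormone-sensing cells (median 24.7) did not pass. No neighbouring classes with 7 mice in the order of Prkacb differed beyond the spread between mice.

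Prkaca, the gene of Cα and the main catalytic form in most tissues (chromosome 8, 83972993 to 83996443, plus strand), ranged from 9.32 to 49.5 CPM in tumor cells with a median of 26.4. Its mean ran from 28.8 CPM in tumor cells to 16.2 CPM in myoepithelial cells, with overlapping ranges, and no class passed. In endothelial cells it had 0 of 96683 UMIs, which allows up to 31.0 CPM, so that a difference from tumor cells was not detectable at this depth. Prkacb made up 46.3% of the catalytic UMIs in tumor cells (41.4 to 51.3%), 44.2% in hormone-sensing cells (36.3 to 52.4%), 82.9% in T/NK cells (74.8 to 89.2%) and 86.2% in myoepithelial cells (68.3 to 96.1%). By mouse the share ran from 27.8 to 76.9%, 37.0 to 80.0%, 66.7 to 96.9% (6 mice with a UMI) and 66.7 to 100% in these classes, with overlap.

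The anchoring protein Akap13, also called AKAP-Lbc, holds PKA and activates the small GTPase RhoA (chromosome 7, 75455534 to 75754609, plus strand). Its mean level was lowest in tumor cells. Tumor cells gave 23.2, 30.5 and 72.5 CPM as the lowest, median and highest of 7 mice. The lowest, median and highest were 145, 175 and 317 CPM in fibroblasts, 127, 152 and 262 in macrophages, and 111, 264 and 460 in T/NK cells. The 5 myoepithelial sums were at 112, 146, 129, 84.9 and 123 CPM in replicates 1, 4, 5, 7 and 8, and the 3 endothelial sums at 262, 295 and 722 CPM in replicates 4, 5 and 8. In these 5 classes every mouse was above every tumor sum. Hormone-sensing cells, at 30.7, 44.8 and 168 CPM, overlapped the tumor range.

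Akap13 rose against tumor cells by 2.29 ± 0.35 on the log2 scale in myoepithelial cells (edgeR, adjusted p = 3.39e-07), by 3.19 ± 0.22 in fibroblasts (7.96e-22), by 3.73 ± 0.37 in endothelial cells (1.97e-13), by 2.80 ± 0.21 in macrophages (9.42e-20) and by 3.42 ± 0.21 in T/NK cells (8.47e-25). Relative to the median gene of each contrast these folds were 2.14, 3.05, 3.91, 2.91 and 3.50. With TMM scaling over all genes, which moved the median gene to −0.51, −0.28, −0.94, −0.26 and −0.15 in the same classes, the relative folds of Akap13 were 2.09, 3.00, 3.85, 2.87 and 3.41. Within the CB titles the folds were 2.82 in myoepithelial cells, 3.19 in fibroblasts, 3.12 in macrophages and 3.41 in T/NK cells, and within the WT titles 1.61, 3.08, 2.35 and 3.44, of which only the first did not pass (adjusted p = 0.0935). The endothelial fold was 3.63 within the WT titles and had no value within the CB titles, which held 1 endothelial sum. The myoepithelial fold was 0.48 and did not pass in classes made from the cells' own marker UMIs. Hormone-sensing cells were higher in 7 of 7 mice by 0.63 (exact permutation p = 0.0156), while the edgeR fold of 0.57 did not pass (adjusted p = 0.0877). The mean order above them ran from endothelial (426 CPM) through T/NK (268), fibroblast (207), macrophage (171) and myoepithelial (119) to hormone-sensing cells (62.2). T/NK cells and fibroblasts, and fibroblasts and macrophages, did not differ beyond the spread between mice. The other 3 pairs had 3 or 5 mice and could not reach the threshold, and among them myoepithelial exceeded hormone-sensing cells by 0.94 ± 0.44 on the log2 scale (SE) in 4 of 5 mice.

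The highest tumor value of Akap13 came from replicate 8, whose tumor sum was the smallest, 151752 UMIs. In that sum the fibroblast markers together were at 362 CPM, against 28.1 to 102 CPM in the tumor sums of the other mice. The B and plasma cell markers were at 72.5 CPM against 0 to 34.3. In the fibroblast sum of replicate 8, with 401 of the 1028 fibroblasts, these B and plasma cell markers were at 2445 CPM. The other fibroblast sums held them at 0 to 58.9 CPM, and their part in the fibroblast values was not tested. Without replicate 8 the folds of Akap13 were 2.43 in myoepithelial cells, 3.28 in fibroblasts, 3.39 in endothelial cells, 3.03 in macrophages and 3.57 in T/NK cells. Barcodes under 200 genes held Akap13 at 146 ± 42.8 CPM (n = 7), above every tumor sum and above the myoepithelial (119) and hormone-sensing (62.2) means. Those class means are thus not read as expression, and the part of free RNA in these values was not tested. The genes most like Akap13 across the 43 sums were Msn (r = 0.80), Ppp1r18 (0.77) and Cd47 (0.76).

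Akap1, which anchors PKA at the outer mitochondrial membrane (chromosome 11, 88830792 to 88864586, minus strand), had its lowest mean levels in T/NK cells (3.34 CPM) and fibroblasts (5.76). It was at 15.5, 17.9 and 38.7 CPM in the lowest, median and highest tumor sum. T/NK cells ranged from 0 to 9.96 CPM with 4 of 7 mice at 0, and fibroblasts from 0 to 11.4 CPM with 3 of 7 at 0, where the values observed lay under the tumor range. Of the sums at 0, 3 of 4 in T/NK cells and 3 of 3 in fibroblasts were so shallow that 3 UMIs exceed the tumor level of the same mouse, so 4 of 7 mice in each class bear on the order. The log2 fold change was −1.61 ± 0.55 in T/NK cells (edgeR, adjusted p = 0.0132) and −0.67 in fibroblasts, which did not pass. In each class 7 of 7 mice were lower (exact permutation p = 0.0156), with the shallow sums at 0 counted as lower. The 4 mice that bear on the order are too few for an exact p under 0.05. Macrophages did not pass in edgeR either and were lower in 6 of 7 mice (exact permutation p = 0.0312). Of their 2 sums at 0, 1 was so shallow that 3 UMIs exceed the tumor level of the same mouse. The p counts that sum as lower, and 5 mice are lower without it. The ratio of summed counts, tumor to macrophage, was 2.97 (95% counting interval 1.57 to 6.30). The means in T/NK cells, fibroblasts and macrophages (9.30 CPM) were under the 13.7 CPM of barcodes under 200 genes. They are not read as expression. The T/NK fold was −1.70 within the CB titles, which passed, and −1.43 within the WT titles, which did not. Akap13 made up 58.8% of the UMIs of both anchoring genes in tumor cells (53.8 to 63.6%) and 64.0% in hormone-sensing cells (56.2 to 71.4%), but 95.8 to 98.3% in fibroblasts, endothelial cells, macrophages and T/NK cells.

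**Figure D3:**
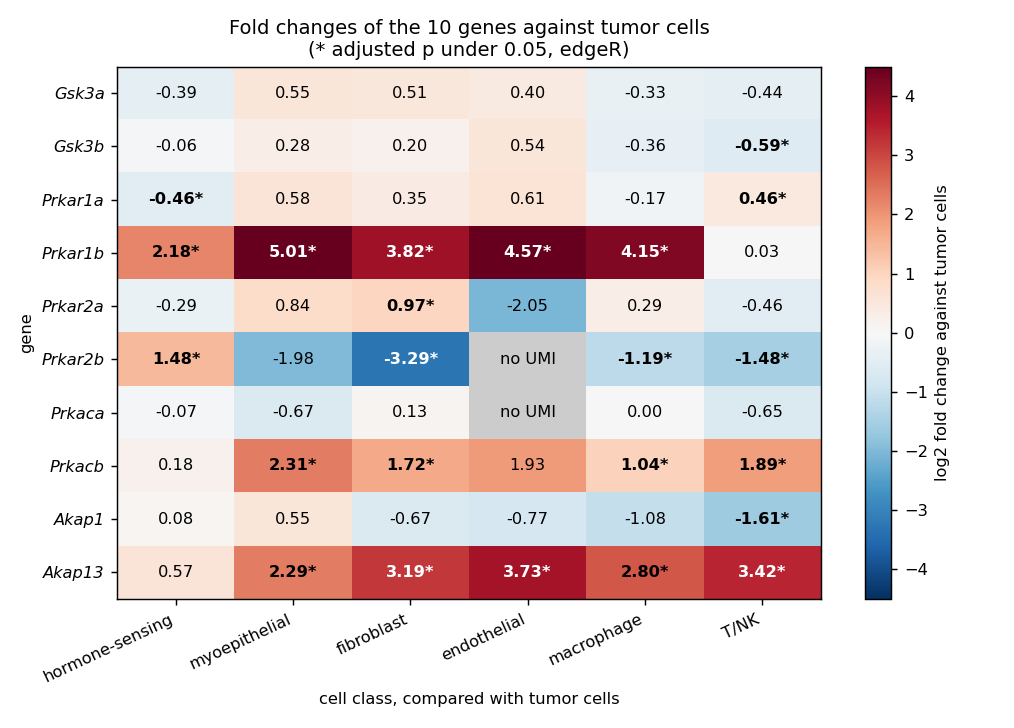
Log2 fold change of each gene (vertical axis) in each class against tumor cells (horizontal axis), from edgeR with mouse in the model, where colour and number give the fold change, asterisks an adjusted p under 0.05, and grey cells a class without a UMI. Akap13 and Prkacb were higher in most classes, and Prkar2b was higher in hormone-sensing cells (1.48) and lower in fibroblasts, macrophages and T/NK cells.

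The choice of scaling bore on the shallow classes. With TMM over the 1000 genes with the most UMIs, 79.3% of the genes called in endothelial cells, 81.0% in myoepithelial cells and 65.6% in fibroblasts were higher than in tumor cells. With TMM over all genes these shares were 34.4%, 34.4% and 40.9%. Among the 23 member folds, those lost with TMM over all genes were Prkar1a in T/NK cells, Prkar1b in endothelial cells and Prkar2a in fibroblasts, and no fold changed sign. In macrophages 6 members were called with TMM over all genes in place of 4.

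Within the tumor class, 4 clusters (0, 1, 4 and 9) were compared. No member passed the edgeR test across them among the 9 tested, where 14.8% of 10351 genes did. Prkar2b alone had an unadjusted p under 0.05 (adjusted p = 0.102), and DESeq2 likewise called none (1 at an unadjusted p under 0.05). Within mice, Prkar2b was higher in cluster 0 than in cluster 1 in 7 of 7 mice (exact permutation p = 0.0156). It was also higher than in cluster 4 in 7 of 7 (p = 0.0156, exact) and than in cluster 9 in 6 of 6 (p = 0.0312, exact). Cluster 4 had no UMI of it in replicates 3 and 8, and cluster 9 none in replicates 3 and 5. In these sums, of 35310 to 48373 UMIs, 3 UMIs exceed the cluster 0 level of the same mouse. The tests with clusters 4 and 9 thus count shallow sums at 0 as lower. Among 60 such comparisons, 6 cluster pairs for each of 10 members, 5 had an unadjusted exact p under 0.05, the others being Prkar2a in cluster 0 against 4 and 9, and none passed after adjustment over the 60 (lowest 0.375). The mean level of Prkar2b was 29.3 ± 9.31 CPM in cluster 0, 15.7 ± 6.88 in cluster 1, 10.3 ± 9.55 in cluster 4 (n = 7 each) and 9.36 ± 7.68 in cluster 9 (n = 6). Prkar2a was at 60.04, 32.6, 32.6 and 34.6 CPM in the same clusters. Gsk3b lay between 169 and 186 CPM and Prkar1a between 232 and 296 CPM.

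**Figure D4:**
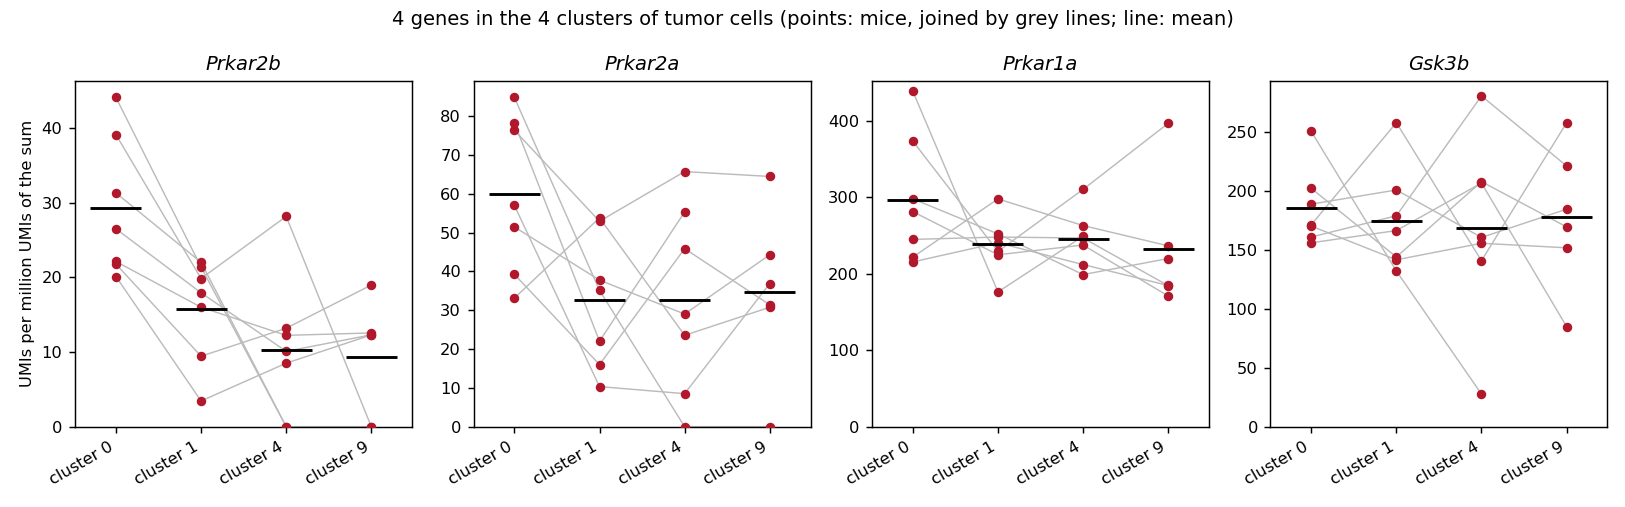
Levels of 4 of the genes (vertical axis, CPM) in the 4 tumor clusters (horizontal axis), where points are mice joined by grey lines and black lines are means. The mean of Prkar2b was 29.3 CPM in cluster 0 and 9.36 CPM in cluster 9, and the gene did not pass the test across clusters.

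Between tumor cells of the libraries with CB and with WT titles none of the 9 members tested passed, where 0% of 10354 genes passed in edgeR. Prkaca alone had an unadjusted p under 0.05 (adjusted p = 0.886), with a log2 fold change of −1.09 in WT against CB titles. DESeq2 called 0 members, 1 at an unadjusted p under 0.05, and 7 genes of all.

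The other genes of the 2 pathways gave the surroundings of the members. Among regulators of cyclic AMP signalling that were tested, 5 of 5 PKA inhibitors, related kinases and EPAC genes, 11 of 14 other AKAP genes, 6 of 7 cyclic AMP makers and G protein genes, 7 of 7 phosphodiesterases and 6 of 10 genes of the CREB family and its coactivators differed across the classes, against the 67.1% of all genes. Pkib, a PKA inhibitor, was highest against tumor cells in macrophages (log2 fold change 5.95 ± 0.35), as was Adcy7, an adenylyl cyclase (4.68 ± 0.37). Pde3b, a phosphodiesterase, was higher in T/NK cells (5.0 ± 0.43) and macrophages (4.36 ± 0.46). Pde8a was higher in fibroblasts (4.96 ± 0.45), endothelial cells (4.60 ± 1.02, from 4 UMIs) and macrophages (3.86 ± 0.47). Akap12, another anchoring protein, was higher in endothelial cells (3.93 ± 0.47) and fibroblasts (3.28 ± 0.27), but lower in hormone-sensing cells (−2.77 ± 0.49) and macrophages (−2.20 ± 0.59). Ezr, which codes for ezrin, was lower in endothelial cells (−2.87 ± 0.47, from 7 UMIs) and in 3 other classes and higher in hormone-sensing cells (1.15 ± 0.17). Rapgef4, the gene of EPAC2, was also higher in endothelial cells (4.59 ± 0.66). Pkia, another PKA inhibitor, was lower in hormone-sensing cells, where it had 1 UMI and the ratio of summed counts, tumor to hormone-sensing, was 21.4 (95% counting interval 3.70 to 857). Rab32 (3.78 ± 0.40) was higher in macrophages, the cyclase Adcy6 was lower there (2 UMIs, tumor to macrophage ratio 8.54, 2.30 to 71.5) but higher in fibroblasts (1.82 ± 0.39), and the cyclase Adcy3 was higher in fibroblasts (3.81 ± 0.63). Crem was lower in myoepithelial cells (2 UMIs, tumor to myoepithelial ratio 11.05, 3.05 to 91.4) and hormone-sensing cells but higher in T/NK cells (2.94 ± 0.23) and macrophages (1.419 ± 0.24), Creb5 lower in T/NK cells (−2.31 ± 0.45) but higher in fibroblasts (1.62 ± 0.28) and macrophages (1.14 ± 0.27), and Crtc3 higher in fibroblasts (1.51 ± 0.38), each past the edgeR threshold. Taking 3 UMIs over the class as the limit, Pde7b, without a UMI in T/NK cells, was at least 2.58-fold lower than in tumor cells. It was also lower in hormone-sensing cells (1 UMI, tumor to hormone-sensing ratio 17.0, 2.91 to 683) and higher in myoepithelial cells (2.45 ± 0.75, from 7 UMIs).

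Around GSK3, 12 of 17 partners in the beta-catenin destruction complex and the Wnt pathway, 7 of 9 kinases that phosphorylate GSK3, 10 of 14 subunits of the phosphatases PP1 and PP2A and 8 of 10 GSK3 substrates differed across the classes, against the same 67.1% of all genes. In T/NK cells 8 of the 17 partners were lower than in tumor cells and 2 higher. Of all 13111 genes, 3045 were lower there and 2545 higher (42.6% called). The median log2 fold change of the partners was −0.62 against −0.08 for all genes. In macrophages 5 partners were lower and 1 higher, where 2580 of all genes were lower and 2420 higher (38.1% called). Fbxw7, a ubiquitin ligase subunit that recognises GSK3 substrates, was lower in hormone-sensing cells (−1.73 ± 0.26) and Amer1 in macrophages (−1.87 ± 0.50), while Axin2, a Wnt target and scaffold for GSK3, was higher in T/NK cells (2.12 ± 0.52) and lower in hormone-sensing cells (2 UMIs, tumor to hormone-sensing ratio 5.43, 1.38 to 46.7). Among the kinases, Rps6ka1 was lower in fibroblasts (1 UMI, tumor to fibroblast ratio 65.3, 11.7 to 2584) and higher in macrophages (0.56 ± 0.23), and Sgk3 was higher in macrophages (2.86 ± 0.36). Sgk1 was lower in T/NK cells (−2.04 ± 0.23) but higher in hormone-sensing cells (0.99 ± 0.17), macrophages (0.80 ± 0.18) and fibroblasts (0.55 ± 0.19). In CPM the means of Sgk1 in tumor cells and fibroblasts were 337 ± 111 and 347 ± 159 (SD). Those of Rps6ka1 in tumor cells and macrophages were 62.5 ± 23.3 and 59.7 ± 25.6. The folds of 0.55 and 0.56 are thus not seen in the CPM, which do not use the TMM factors. Among the phosphatase genes, Ppp2r1a was lower in endothelial cells (1 UMI, tumor to endothelial ratio 10.3, 1.84 to 407), Ppp2r1b higher in fibroblasts (1.91 ± 0.52) and Ppp1cb lower in macrophages (−1.85 ± 0.21). Among the substrates, Nfatc1 was higher in T/NK (3.45 ± 0.39) and endothelial cells (3.43 ± 0.98, from 5 UMIs), fibroblasts (3.39 ± 0.44) and macrophages (3.28 ± 0.39). Nfe2l2, the gene of NRF2, was higher in 5 classes, most in macrophages (3.05 ± 0.18). Snai1, the gene of SNAIL, was higher in endothelial cells (2.96 ± 0.69, from 10 UMIs). Snai1 was also higher in fibroblasts (2.04) and lower in hormone-sensing cells (−1.77 ± 0.48), T/NK cells (2 UMIs, tumor to T/NK ratio 8.68, 2.35 to 72.6) and macrophages (2 UMIs, tumor to macrophage ratio 10.1, 2.72 to 84.1). Hk2 itself was at 42.5 ± 20.1 CPM in tumor cells and 351 ± 153 in fibroblasts (log2 fold change 3.48 ± 0.22, adjusted p = 7.76e-24) and was also higher in macrophages (1.63 ± 0.25), where Hk1 was lower (−1.82 ± 0.37).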

How the data were processed

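UMI counts per gene and barcode were deposited by the authors for 7 libraries, 1 tumor each, as whole numbers without normalization; reads had been aligned to mm10 with the PyMT sequence added, per the study's methods. The submitters' processing notes name STAR and FastQC, and also GRCh37.p13 and hg19, which are human builds. The counting program, the annotation and whether counting used the strand are not given in the sources used here. Mitochondrial genes, present in 2 tables, were dropped, and a barcode counted as a cell if it held between 200 and 6000 genes. No doublet caller was run, and only the upper limit on genes acts on doublets.

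Cells were clustered with Seurat 5.3.0 in R 4.3.3 (587 variable genes, 20 principal components, 30 neighbours, resolution 0.6), without batch correction. Clusters were named from marker lists with a score of at least 1 and at least 3 markers detected in 10% of cells. The 3 clusters that were erythroid, B and plasma or unnamed (1614 cells, 10.7%) were left out. UMIs were summed per mouse and class where at least 10 cells were present, and genes with at least 50 UMIs in the fit were tested with edgeR 4.0.16 (quasi-likelihood, mouse and class in the model) with Benjamini-Hochberg adjustment over all genes. Standard errors are the log2 fold change divided by the root of F. Each library is 1 mouse, so p-values rest on 7 mice, 5 in myoepithelial and 3 in endothelial contrasts. Single values were compared within mice by exact two-sided sign-flip permutation tests on log2(CPM + 5) in Python 3.11.15 with scipy 1.17.1. These p-values were not adjusted over the 60 comparisons of a kind.

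Counts were scaled by TMM over the 1000 genes with the most UMIs. TMM over all genes had been planned, and this choice replaced it after results had been seen, because TMM over all genes put unchanged genes at a median log2 fold change of −0.70 (endothelial) and −0.12 (fibroblast) on simulated sums, where the chosen scaling gave −0.13 and −0.01. In the same simulation of fibroblasts (12934 genes), 88.0% of 50 genes raised by 2 and 42.9% of 49 lowered by 2 (log2) were called. In endothelial cells (12932 genes) these were 33.3% of 48 and 4.00% of 50. All simulated classes were drawn from 1 shared profile, with few genes changed in 1 class. The simulation thus cannot tell which scaling is right where many genes differ between classes. Intervals are exact (95%) and cover counting error only. The members and gene lists were chosen with earlier results of these data known. Named were all 10 members, the 3 genes of each list with the largest called fold, Hk2 and Hk1, and the 3 genes most correlated with a member on log2(CPM + 5) among genes with at least 200 UMIs. For list genes the class with the largest fold is given, and not always the other classes that passed. Gene coordinates are those of GENCODE vM21 on GRCm38 (mm10). Alternatives to these choices, among them DESeq2 1.42.0, are given in the closing section.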

Additional observations from a re-analysis of the deposited data

Results flagged for a closer look

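In 13 of 60 groups of 5 or 7 mice, 1 mouse stood apart from the others by Dixon's test. Chance alone flags about 1 in 20 groups, and genes with many zeros are flagged by single UMIs. Of these, 4 rest on 1 UMI: Prkar1b in hormone-sensing cells of replicate 8 (24.0 CPM), Prkar2b in myoepithelial cells of replicate 4 (8.11 CPM), Prkar2b in fibroblasts of replicate 1 (11.4 CPM) and Prkar1b in T/NK cells of replicate 7 (3.32 CPM). Replicate 8, the library with the fewest cells, was also apart for Akap13 in tumor cells (72.5 CPM, 11 UMIs), Akap13 in hormone-sensing cells (168 CPM, 7 UMIs) and Prkacb in hormone-sensing cells (71.9 CPM, 3 UMIs). Akap1 was apart in tumor cells of replicate 3 (38.7 CPM, 40 UMIs) and in hormone-sensing cells of replicate 5 (70.9 CPM, 12 UMIs). The other mice apart were replicate 5 for Prkacb in fibroblasts (129 CPM, 11 UMIs), replicate 2 for Gsk3a in macrophages (57.0 CPM, 5 UMIs), replicate 3 for Prkar1a in T/NK cells (608 CPM, 11 UMIs) and replicate 4 for Prkar2b in T/NK cells (19.9 CPM, 5 UMIs). What set these mice apart was not tested.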

How the results depend on the processing

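The 23 folds called against tumor cells were recomputed under 504 alternatives in all: 421 kept the call, 83 lost it and 0 changed sign. The 5 folds kept under every alternative that entered were Prkacb in fibroblasts and Akap13 in fibroblasts, endothelial cells, macrophages and T/NK cells. With DESeq2 the calls of Prkar1a in T/NK cells and of Prkar2b in macrophages were lost. Each fold had 15 to 24 alternatives, with 20 for Akap13 in endothelial cells. Alternatives that gave no value and permutation tests of classes with 3 or 5 mice did not enter. Among 480 recomputed levels, 470 stayed within 1 SD.

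Across the classes 8 members were called, 5 (of 6 tested) with edgeR's filterByExpr, 3 within the WT titles and 6 to 8 when a mouse was left out. In hormone-sensing cells (3 called) the number was 1 with filterByExpr, 1 with at least 500 genes per barcode, 0 in classes from own marker UMIs, 1 within the CB titles and 0 within the WT titles, and 1 to 3 when a mouse was left out. In myoepithelial cells (3 called) it was 0 in classes from own marker UMIs and 0 within the WT titles, and 2 to 4 when a mouse was left out. In fibroblasts (5 called) it was 3 with filterByExpr, with at least 500 genes and within either title series, and 4 to 6 when a mouse was left out. In endothelial cells (2 called) it was 1 with filterByExpr, without a filter, in classes from own marker UMIs, with at least 500 genes, without the replicate block, with TMM over all genes and within the WT titles, and 1 to 2 when a mouse was left out. In macrophages (4 called) it was 2 with filterByExpr, with at least 500 genes and within either title series, and 2 to 5 when a mouse was left out. In T/NK cells (6 called) it was 2 with at least 500 genes, 3 within the WT titles and 3 to 6 when a mouse was left out. The cause of these losses was not tested, apart from the fewer cells, mice or genes that enter. Leaving the replicate block out moved no other number of calls by more than 1.5 times.

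TMM without a choice of genes was the scaling planned; TMM over the 1000 genes with the most UMIs took its place after results had been seen. The erythroid cluster added to tumor cells was an alternative chosen after seeing the data. With 9 principal components no endothelial class was found, so no value is given there. The myoepithelial cluster of that setting held 419 cells, with an endothelial score of 4.58 beside its own score of 4.75. Its folds are counted among the alternatives and may mix the 2 classes. Depth limits the rare genes most: Prkar1b, Prkar2b outside hormone-sensing and tumor cells, and every member in endothelial cells.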

Other observations

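The cells outside the 7 classes also held the members. In a cluster left unnamed, with 7 mice, Prkar2a was at 103 ± 36.5 CPM and Akap13 at 163 ± 68.7 CPM, while Prkacb was at 5.19 ± 9.65 CPM and Prkar1b and Akap1 had no UMI. B and plasma cells (4 mice) held Akap13 at 158 ± 55.3 CPM, Prkar1a at 242 ± 37.2 CPM and Gsk3b at 61.2 ± 24.97 CPM, the last from 14 UMIs. A cluster with globin genes (4 mice) held Akap13 at 34.5 ± 36.9 CPM, Gsk3b at 121 ± 68.6 CPM and Prkar2b at 24.0 ± 27.0 CPM. Apart from the alternative that added the globin cluster to tumor cells, these groups were in no comparison.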
